A study of Mus musculus with 24 samples.

Results

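The genes described here are 31 mouse genes of cholesterol and fatty acid synthesis, fixed as a list by gene symbol, among 52636 genes of one table of RNA levels in MC38 colorectal cancer cells. Each of the 31 symbols had exactly 1 row, and all 31 passed the filter on low values in every comparison. Acat2, Hmgcs1, Mvk, Pmvk, Mvd, Idi1 and Fdps carry acetyl-CoA to farnesyl diphosphate (7 genes). Fdft1, Sqle, Lss, Cyp51, Tm7sf2, Msmo1, Nsdhl, Hsd17b7, Ebp, Sc5d and Dhcr7 carry farnesyl diphosphate to cholesterol (11 genes). Srebf1, Srebf2, Insig1 and Stard4 regulate the pathway or move sterols (4 genes), and Acly, Acaca, Fasn, Elovl6, Scd1, Scd2, Fads1, Fads2 and Lpin1 belong to fatty acid and glycerolipid synthesis (9 genes).

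Cells make cholesterol from acetyl-CoA through mevalonate, isoprenoid diphosphates, squalene and lanosterol. When sterols in the endoplasmic reticulum are scarce, the escort protein SCAP carries the precursors of the transcription factors SREBP1 and SREBP2, encoded by Srebf1 and Srebf2, to the Golgi, where the proteases encoded by Mbtps1 and Mbtps2 release their active parts. INSIG1 holds the complex back when sterols are plentiful. SREBP2 mainly drives sterol genes and SREBP1c mainly drives fatty acid genes, often beside the factor NF-Y, which binds CCAAT boxes. Growing tumour cells use the products for membranes.

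MC38 is a colorectal cancer line from C57BL/6 mice, and 8 lines of it were sequenced with 3 samples each. MC38-WT was not transfected. MC38-MOCK#1 received an empty CRISPR/Cas9 construct and is the reference of the knockout lines. These are MC38-Tnhigh, labelled COSMC KO, in which C1galt1c1 was targeted, MC38-CMAS KO, in which Cmas was targeted, and MC38-DKO, in which both were targeted. MC38-MOCK#2 is the reference of the lines MC38-FUT4 and MC38-FUT9, made with CRISPR-dCas-VPR, a nuclease-dead Cas9 fused to activation domains, to raise the fucosyltransferase genes Fut4 and Fut9. C1galt1c1 encodes COSMC, the chaperone of the enzyme that extends the Tn antigen, and Cmas encodes the enzyme that activates sialic acid. All lines grew in DMEM with 10% FCS, and all but MC38-WT were kept under puromycin. MC38-Tnhigh was sorted in bulk for binding of a lectin to the Tn antigen and is not a single clone. The lines MC38-MOCK#1, MC38-Tnhigh, MC38-CMAS KO and MC38-DKO were at passages 4 to 6, MC38-MOCK#2 and MC38-FUT9 at passages 6 to 8, and MC38-WT at passages 7 to 9, and between these sets an effect of passage cannot be told apart from one of the line. The samples of MC38-FUT4 were at passages 7, 8 and 7. The study describes harvests from separate passages of a line, so p-values measure the spread between harvests of 1 cell population.

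Values are normalized counts: reads per gene, scaled by the authors for each library with edgeR and rounded to whole numbers. Totals lay between 10911849 and 12263307 per sample, and the estimated depth was between 6760723 and 16242791 reads. Cmas lay between 93 and 142 in the lines in which it was targeted and at 272 or more in every other sample. C1galt1c1 lay between 124 and 163 in MC38-Tnhigh and between 220 and 251 in MC38-MOCK#1, but between 166 and 206 in MC38-DKO, which overlaps with MC38-CMAS KO at 152 to 215. Fut4 was at most 1 in every sample, MC38-FUT4 included, while Fut9 was at 209, 171 and 186 there, at 955, 641 and 676 in MC38-FUT9 and at most 7 in all other samples. That library set is therefore called the line labelled FUT4. Of 8 epithelial markers only Krt20 reached 10 normalized counts in any sample, and Epcam and Cdh1 never exceeded 3. Krt20 was at 448, 263 and 468 in the line labelled FUT4, at 30 to 44 in MC38-CMAS KO and at most 6 elsewhere. The summed mesenchymal markers Vim, Col1a1 and Pdgfrb lay between 20540 and 33362, and none of 5 immune, 3 adipocyte and 3 hepatocyte markers reached 10. Of 3 endothelial markers Cdh5 reached 10, at 10, 6 and 16 in the line labelled FUT4 and at most 7 elsewhere.

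RefSeq promoter windows, from 250 bases before to 50 bases after an annotated start on GRCm38.p6, were matched for 24 of the 31 genes, 29 windows in all. Fdps, Fdft1, Sqle, Stard4, Scd1, Scd2 and Fads1 were not matched. The 150 bases before a start are shown for 6 genes on which the results below turn, 5′ to 3′ on the strand of the gene. Capitals mark TCACNCCAC, a form of the sterol regulatory element, and CCAAT, both searched on both strands, so that a CCAAT on the other strand reads ATTGG. The stretches are those of Hmgcs1 at chr13:119690201-119690350 (plus strand), Mvd at chr8:122443423-122443572 (minus), Lss at chr10:76531455-76531604 (plus), Cyp51 at chr5:4104698-4104847 (minus), Dhcr7 at chr7:143830064-143830213 (plus, 1 of 3 windows of Dhcr7) and Acat2 at chr17:12960726-12960875 (minus).
Hmgcs1: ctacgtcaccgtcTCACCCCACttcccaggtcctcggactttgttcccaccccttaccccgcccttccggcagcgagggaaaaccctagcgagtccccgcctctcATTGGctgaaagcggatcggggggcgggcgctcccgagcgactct
Mvd: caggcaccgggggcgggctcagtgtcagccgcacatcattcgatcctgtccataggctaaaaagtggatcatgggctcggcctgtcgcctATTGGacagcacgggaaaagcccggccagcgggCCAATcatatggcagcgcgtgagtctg
Lss: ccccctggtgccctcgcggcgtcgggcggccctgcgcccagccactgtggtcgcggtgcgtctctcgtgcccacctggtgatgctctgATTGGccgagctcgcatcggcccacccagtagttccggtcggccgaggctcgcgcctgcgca
Cyp51: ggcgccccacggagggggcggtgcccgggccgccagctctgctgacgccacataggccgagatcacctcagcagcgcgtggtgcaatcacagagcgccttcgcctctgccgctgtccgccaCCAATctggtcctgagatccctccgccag
Dhcr7: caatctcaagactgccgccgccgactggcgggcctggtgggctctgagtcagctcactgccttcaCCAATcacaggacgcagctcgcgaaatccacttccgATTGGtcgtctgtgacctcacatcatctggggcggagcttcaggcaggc
Acat2: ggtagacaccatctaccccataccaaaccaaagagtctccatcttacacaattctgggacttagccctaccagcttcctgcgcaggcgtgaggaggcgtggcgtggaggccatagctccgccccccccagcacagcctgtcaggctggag
TCACNCCAC occurred in 1 of the 29 member windows, that of Hmgcs1, with its first base at -137, and in 1.24% of 32851 windows of all genes. CCAAT occurred in 20 of the 29 windows (69%) against 37.4% of all windows. Of the windows of mevalonate and sterol genes 14 of 18 held it (77.8%), and of those of fatty acid genes 2 of 6 (33.3%). The stretches of Mvd and Dhcr7 hold 2 copies each, those of Hmgcs1, Lss and Cyp51 hold 1, and that of Acat2 holds none. Dhcr7 has 3 windows, and the 1 shown was picked because it is the only one that holds CCAAT. The motifs do not overlap in these stretches, and a match is a match of letters only.

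Levels between genes were compared only per kilobase of exon. On that scale Scd2, a stearoyl-CoA desaturase, stood highest with a mean of 4544 normalized counts per kilobase over the 24 samples, followed by the polyunsaturated fatty acid desaturase Fads2 with 1913 and the fatty acid synthase Fasn with 1410. Cyp51, the lanosterol demethylase, was the highest gene of the sterol branch with 1364. Tm7sf2, a sterol reductase, was the lowest with 5.62 and had 10 to 29 normalized counts per sample. Scd1 and Scd2 are close paralogs, and how shared reads were split between them is uncertain.

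The first question was which of these genes differed among the 8 lines at all. In the moderated F test of limma over all lines, with Benjamini-Hochberg adjustment over all tested genes and a call at an adjusted p below 0.05, 23 of the 31 genes were called, against 48.2% of all genes tested. These genes are abundant, and among genes with a mean of at least 400 normalized counts, a minimum chosen after values were seen that 30 of the 31 meet, 76.3% were called, so the share of 74.2% among the members was near that of other abundant genes. Of the mevalonate genes 6 of 7 were called, of the sterol genes 9 of 11, of the regulators 4 of 4 and of the fatty acid genes 4 of 9. Idi1, Tm7sf2, Nsdhl, Acly, Fasn, Scd1, Fads1 and Lpin1 were not called. The smallest adjusted p-values belonged to Hmgcs1 (6.05e-09), the synthase that makes HMG-CoA, to Fdft1, the squalene synthase (3.86e-08), and to Acat2, the thiolase of the first step (2.27e-07). Without a single sample at a time the count was between 20 and 27. In bulk RNA of a line, fewer cells with a transcript and less of it per cell cannot be told apart.

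The widest range of line means was that of Hmgcs1, from 1458 ± 36.4 (SD, n = 3) in the line labelled FUT4 to 4384 ± 712 in MC38-MOCK#2, a 3.01-fold difference. Acly, which makes cytosolic acetyl-CoA from citrate, had the narrowest, 1.11-fold. MC38-MOCK#2 had the highest line mean for 20 of the 31 genes and MC38-FUT9 the lowest for 17, while MC38-MOCK#1 had the lowest for 8.

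**Figure D1:**
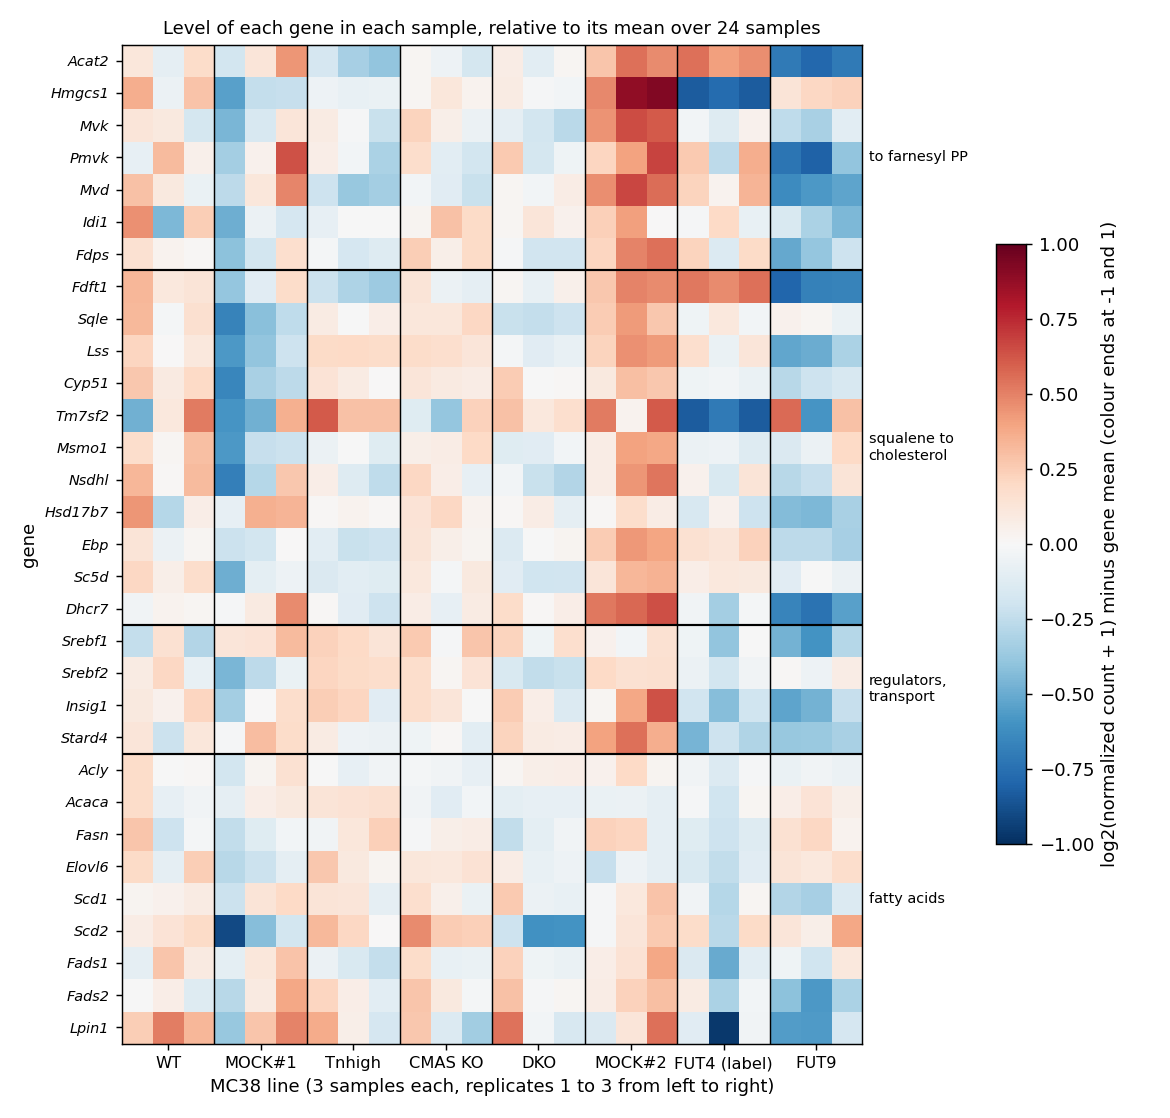
Level of each of the 31 genes (rows, grouped by role) in each of the 24 samples (columns, 3 per line), as log2 of the normalized count plus 1 minus the mean of the gene over all samples, with red above and blue below that mean. Most mevalonate and sterol genes are red in MC38-MOCK#2 and blue in MC38-FUT9, and sample 1 of MC38-MOCK#1 is blue for most genes.

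As a measure per sample, the deviations of log2 values from the mean of each gene were averaged over the 18 mevalonate and sterol genes. The 3 samples of MC38-MOCK#2 stood at 0.26, 0.45 and 0.46, above every other sample. The samples of MC38-FUT9 stood at -0.32, -0.37 and -0.22. The samples of MC38-MOCK#1 spread most, from -0.42 over -0.14 to 0.12 (SD 0.27), and its sample 1 was the lowest of all 24 samples. The line means of the other lines lay between -0.06 in MC38-Tnhigh and 0.11 in MC38-WT. Over the 9 fatty acid genes the line means ranged only from -0.14 in the line labelled FUT4 to 0.09 in MC38-MOCK#2 and MC38-WT.

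**Figure D2:**
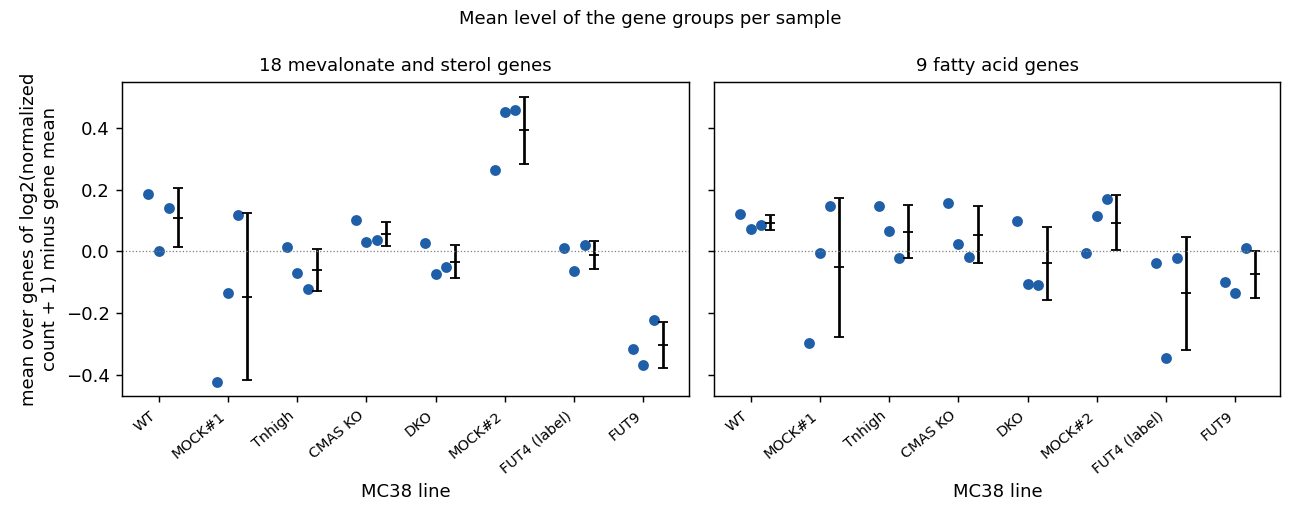
Mean level of the 18 mevalonate and sterol genes (left) and of the 9 fatty acid genes (right) in each sample, as the mean over genes of log2 of the normalized count plus 1 minus the gene mean, with points for samples and bars for mean and SD of 3 samples. The samples of MC38-MOCK#2 (0.26 to 0.46) and MC38-FUT9 (-0.37 to -0.22) lie apart on the left, whereas on the right, for the fatty acid genes, the samples of these lines overlap.

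The genes of the pathway varied together, as a description over points that share their library. Across the 8 line means, the median correlation (Pearson r) of a mevalonate or sterol gene with the mean of the other such genes was 0.77, and over the deviations of the 24 samples from their line means it was 0.75. The samples of MC38-MOCK#1, with an SD of 0.27 against at most 0.11 in any other line, weigh most in the correlations within lines. For 9746 other genes with a mean of at least 100 the medians were -0.04 and -0.02. Fatty acid genes had medians of 0.48 and 0.74. Hmgcs1 followed the other sterol genes less across lines (0.41) than Fdps (0.95), the farnesyl diphosphate synthase, or Mvk (0.92), the mevalonate kinase. Acaca, the acetyl-CoA carboxylase, and Elovl6, which elongates palmitate, had correlations across lines below 0 (-0.53 and -0.23) but above 0 within lines (0.51 and 0.74).

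MC38-FUT9 was compared with MC38-MOCK#2 to ask what differed in cells with raised Fut9. All 18 genes from acetyl-CoA to cholesterol had a log2 fold change below 0 in MC38-FUT9, and 15 of them were called. Of the 31 genes 20 fell and 1 rose (limma, adjusted p below 0.05), against 12% of all genes that fell and 12.1% that rose, 24.1% called in all. Among genes with a mean of at least 400, 14.8% fell, 23.9% rose and 38.8% were called. All 7 mevalonate genes fell, 8 of 11 sterol genes, 3 of 4 regulators and 2 of 9 fatty acid genes. The median log2 fold change was -0.51 over the 31 genes and 0.03 over all genes with a mean of at least 10. The values did not overlap between the lines for 25 of the 31 genes, against 36.8% of all genes. Here and below, shares without overlap or at an unadjusted p were not computed among genes with a mean of at least 400. They are over all tested genes, many of them less abundant than the members, so an excess over them was not tested against abundance.

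Dhcr7, the reductase of the last step to cholesterol, was at 832, 786 and 902 in MC38-FUT9 and at 1891, 1950 and 2056 in MC38-MOCK#2. Every sample of MC38-FUT9 was thus lower, with a log2 fold change of -1.23 ± 0.07 (SE) and an adjusted p of 0.000217. Acat2 was at 522, 493 and 520 against 1031, 1249 and 1184. The samples of the lines lay far apart, with a log2 fold change of -1.17 ± 0.09 and an adjusted p of 0.00037. Mvd, which decarboxylates mevalonate diphosphate, was at 728, 756 and 783 against 1560, 1789 and 1658, with no overlap and a log2 fold change of -1.14 ± 0.07 (adjusted p 0.000279). Fdft1, which commits farnesyl diphosphate to sterols, was at 830, 901 and 904 against 1735, 2029 and 1997 (-1.13 ± 0.08, adjusted p 0.000358).

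Among the other mevalonate genes, the log2 fold changes were -0.57 for Hmgcs1, -0.80 for Mvk, -1.08 for Pmvk, the phosphomevalonate kinase, -0.52 for Idi1, the isopentenyl diphosphate isomerase, and -0.79 for Fdps. Among the sterol genes they were -0.32 for the squalene epoxidase Sqle, -0.81 for the lanosterol synthase Lss, -0.44 for Cyp51, -0.49 for Hsd17b7, -0.64 for the sterol isomerase Ebp and -0.33 for the desaturase Sc5d. Tm7sf2, the methylsterol oxidase Msmo1 and the dehydrogenase Nsdhl did not pass, at -0.30, -0.29 and -0.48. Of the regulators, Srebf1 fell by 0.51, Insig1 by 0.76 and Stard4, a carrier of sterols between membranes, by 0.80, while Srebf2 did not pass (-0.16). In the fatty acid branch Scd1 fell by 0.38 and Fads2 by 0.64, and Elovl6 rose by 0.26. Acly, Acaca, Fasn, Scd2, Fads1 and Lpin1 did not pass, with values between -0.61 and 0.16. Without sample 1 of MC38-FUT9 the count was 13 genes, all lower, and Elovl6 was not called when every library was scaled to the same total, without the mean-variance trend, with chromosome medians removed or without sample 1 of MC38-MOCK#2 or any single sample of MC38-FUT9. The 13 genes Acat2, Mvk, Pmvk, Mvd, Fdps, Fdft1, Lss, Cyp51, Hsd17b7, Ebp, Dhcr7, Stard4 and Fads2 were called under every alternative and whichever sample was left out.

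**Figure D3:**
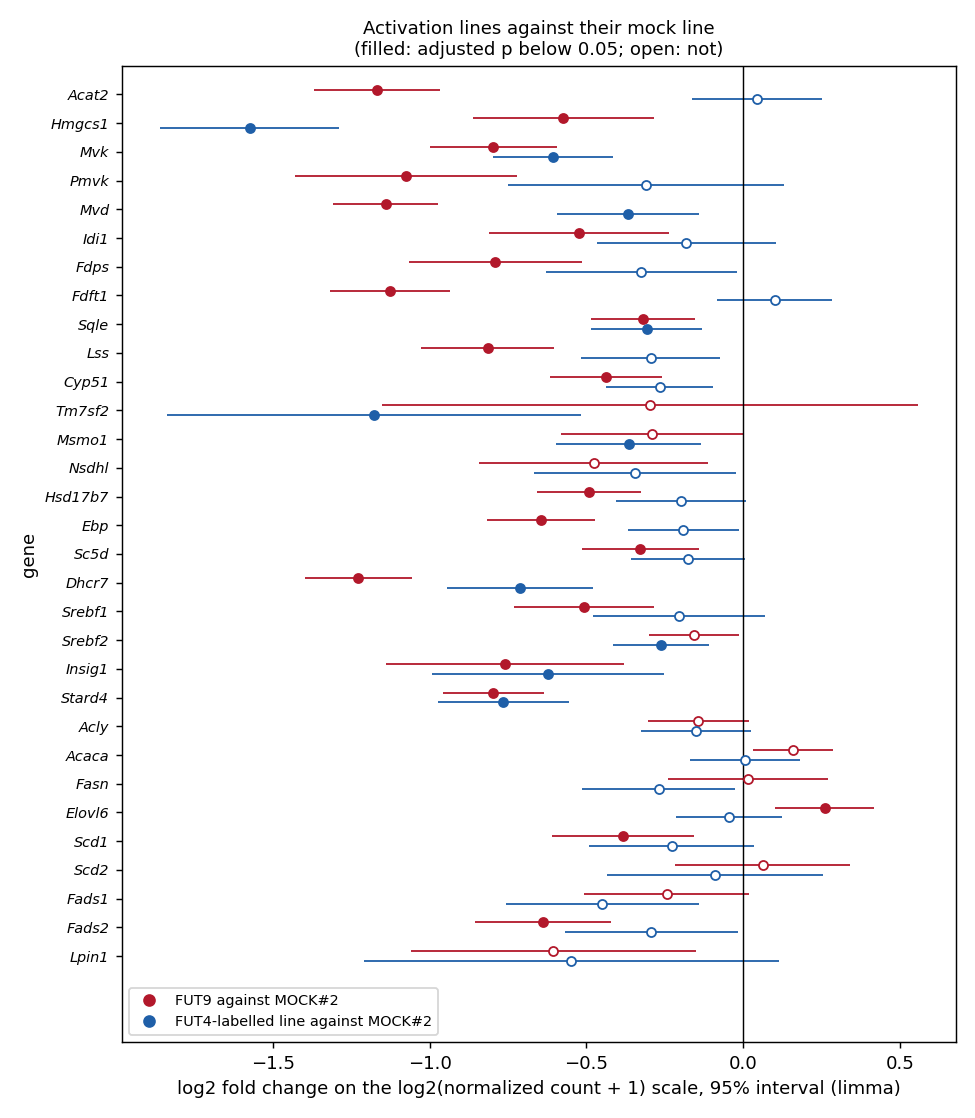
Log2 fold change against MC38-MOCK#2 of each of the 31 genes in MC38-FUT9 (red) and in the line labelled FUT4 (blue), with 95% intervals from limma and filled points at an adjusted p below 0.05. Most points lie left of 0, Acat2 and Fdft1 are far lower in MC38-FUT9 only (-1.17 and -1.13 against 0.04 and 0.10), and Hmgcs1 is lower in the line labelled FUT4 (-1.57) than in MC38-FUT9 (-0.57).

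In the line labelled FUT4, 10 of the 31 genes fell against MC38-MOCK#2 and 0 rose (limma), with 16.1% of all genes called and 8.04% of all genes lower. Of the genes with a mean of at least 400, 25.2% were called and 14.3% were lower. The lowered genes were 3 of the 7 mevalonate genes, 4 of 11 sterol genes and 3 of 4 regulators, and 0 of 9 fatty acid genes were called. Of the 31 genes 17 did not overlap, against 32.1% of all genes, and the median log2 fold change was -0.29 against -0.01 over all genes with a mean of at least 10. At an unadjusted p below 0.05, 18 of the 31 genes passed, against 29.3% of all genes. Averaged over the 18 mevalonate and sterol genes, this line stood at -0.01, between MC38-Tnhigh (-0.06) and MC38-WT (0.11), while MC38-MOCK#2 stood at 0.39. Hmgcs1, Tm7sf2 and the fatty acid genes Acly, Fasn and Fads1 had their lowest line mean in the line labelled FUT4.

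Hmgcs1 was at 1438, 1500 and 1436 in the line labelled FUT4 and at 3564, 4732 and 4855 in MC38-MOCK#2. The samples lay far apart, with the largest log2 fold change of any member between any pair of lines compared, -1.57 ± 0.12 (SE) and an adjusted p of 0.000526. Tm7sf2 was at 10, 11 and 10 against 27, 19 and 29, which do not overlap (-1.18 ± 0.28, adjusted p 0.0319), but at this low count. Stard4 was at 974, 1161 and 1091 against 1773, 1970 and 1733, all lower (-0.76 ± 0.09, adjusted p 0.00228). The other genes that fell were Mvk (-0.61), Mvd (-0.37), Sqle (-0.31), Msmo1 (-0.36), Dhcr7 (-0.71), Srebf2 (-0.26) and Insig1 (-0.62). Acat2 and Fdft1 did not pass, with log2 fold changes of 0.04 and 0.10. Cyp51, at -0.27, lay just outside the threshold. Hmgcs1, Mvk, Dhcr7 and Stard4 were called under every alternative and whichever sample was left out. The count was 5 without sample 2 or without sample 3 of MC38-MOCK#2, 6 without sample 2 and 4 without sample 1 or 3 of the line labelled FUT4. Krt20 and Cdh5 were highest in this line, as given above, and their part in these differences was not tested.

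Because both lines were set against the same mock samples, the difference between them was tested directly. Of the 31 genes 11 were lower and 3 higher in MC38-FUT9 than in the line labelled FUT4 (limma), against 15.8% and 15.7% of all genes, 31.5% called in all. Among genes with a mean of at least 400, 51.7% were called, 20% lower and 31.8% higher. The share of members called in either direction (45.2%) was thus near the background. The values of 17 of the 31 genes did not overlap, against 41.4% of all genes. Fdft1 was at 830, 901 and 904 in MC38-FUT9 and at 2067, 1992 and 2105 in the line labelled FUT4 (log2 fold change -1.23 ± 0.06, adjusted p 3.34e-05). Acat2 was at 522, 493 and 520 against 1248, 1135 and 1178 (-1.21 ± 0.06, adjusted p 4.04e-05). Hmgcs1 went the other way, at 2803, 2947 and 3006 against 1438, 1500 and 1436 (1.00 ± 0.05, adjusted p 4.31e-05). The lines did not overlap for any of these 3 genes, so Acat2 and Hmgcs1, which encode the enzymes of successive steps, differed in opposite directions.

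Also lower in MC38-FUT9 than in the line labelled FUT4 were Pmvk (-0.77), Mvd (-0.77), Idi1 (-0.34), Fdps (-0.47), Lss (-0.52), Cyp51 (-0.17), Hsd17b7 (-0.29), Ebp (-0.45) and Dhcr7 (-0.51). Fasn (0.28) and Elovl6 (0.31) were higher. None of the 4 regulators passed, with log2 fold changes between -0.30 and 0.10. The genes called under every alternative and in every fit without 1 sample were Acat2, Hmgcs1, Mvd, Fdft1, Lss, Ebp and Elovl6. The count was 7 without sample 1 and 8 without sample 3 of the line labelled FUT4, and 8 without sample 1 of MC38-FUT9.

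**Figure D4:**
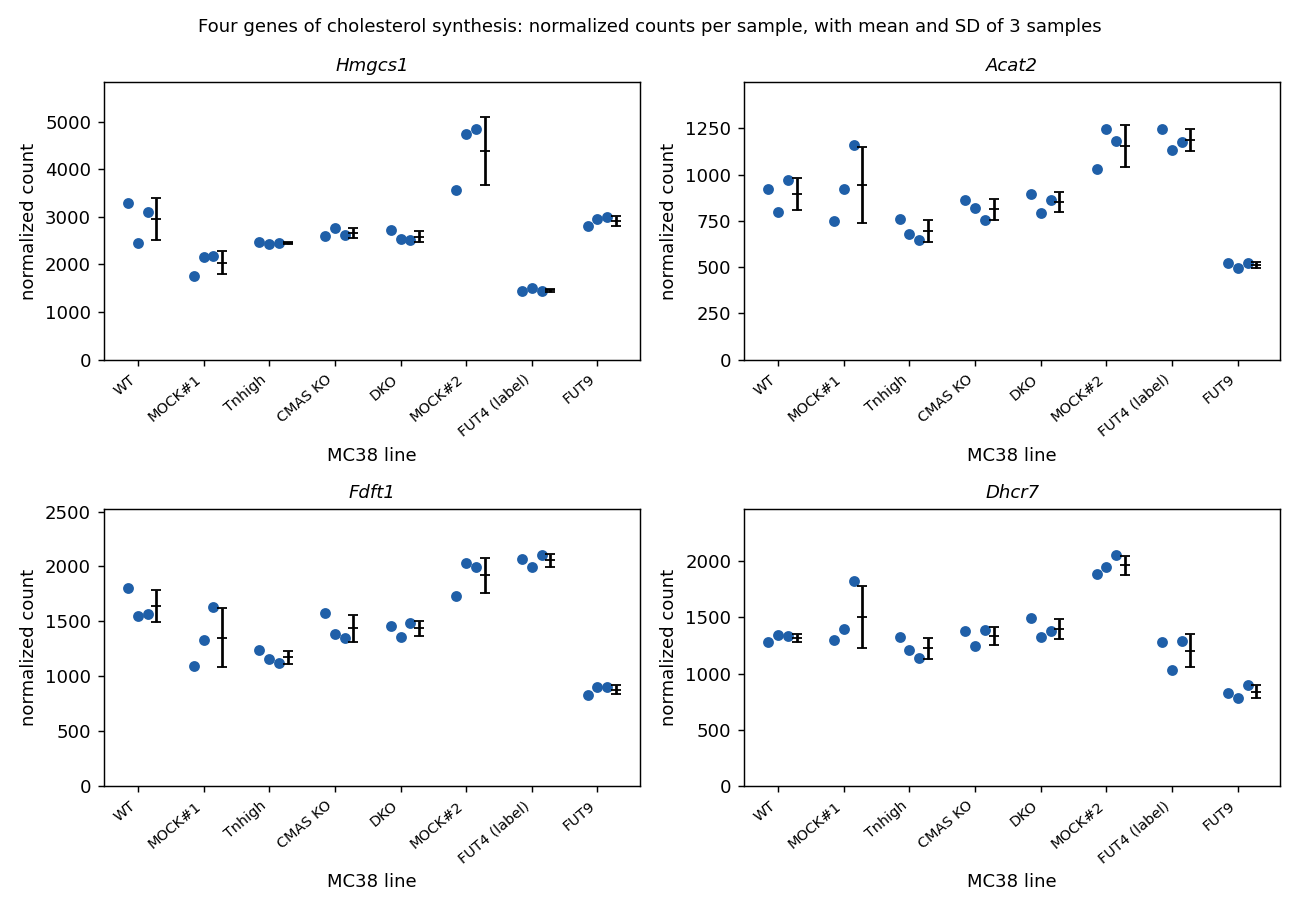
Normalized counts of Hmgcs1, Acat2, Fdft1 and Dhcr7 in each sample of the 8 lines, with bars for mean and SD of 3 samples. Acat2, Fdft1 and Dhcr7 are lowest in MC38-FUT9 (493 to 522, 830 to 904 and 786 to 902), whereas Hmgcs1 is lowest in the line labelled FUT4 (1436 to 1500).

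The activation lines were lowered against a mock line in which the pathway stood high, so the mock lines were compared with each other. In MC38-MOCK#2, 8 of the 31 genes were higher than in MC38-MOCK#1 and 0 lower (limma), against 5.30% of all genes higher, 11.3% called in all, and 9.91% higher among genes with a mean of at least 400. Among the more abundant genes 16.9% were called in all. Of the 31 genes 15 did not overlap, against 28.7% of all genes. Hmgcs1 was at 3564, 4732 and 4855 in MC38-MOCK#2 and at 1752, 2166 and 2185 in MC38-MOCK#1 (log2 fold change 1.1 ± 0.14, adjusted p 0.00621). Sqle was at 3161, 3562 and 3197 against 1665, 1977 and 2219 (0.77 ± 0.11, adjusted p 0.00908). Lss was at 2927, 3453 and 3373 against 1686, 1907 and 2179 (0.76 ± 0.11, adjusted p 0.00897). In each of these 3 genes every sample of MC38-MOCK#2 was above every sample of MC38-MOCK#1. Mvk (0.74), Cyp51 (0.63), Msmo1 (0.63), Ebp (0.49) and Srebf2 (0.43) were also higher. The count was 4 without sample 1 and 0 without sample 2 of MC38-MOCK#1, and 5, 1 and 3 without samples 1, 2 and 3 of MC38-MOCK#2, so none of the 8 calls held in every fit without 1 sample. The construct, the passage and the population differ together between these lines and cannot be told apart.

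The knockout lines were each compared with MC38-MOCK#1, and all these comparisons share its 3 samples, which differ widely among themselves in this pathway. In MC38-Tnhigh 5 of the 31 genes were higher and 0 lower (limma), against 6.17% of all genes higher, 11.6% called in all. Of the genes with a mean of at least 400, 21.5% were called and 12.7% were higher, so the share of called members (16.1%) was near the background. Of the 31 genes 9 did not overlap, against 28.4% of all genes. Lss was at 2874, 2888 and 2847 in MC38-Tnhigh against 1686, 1907 and 2179 (log2 fold change 0.58 ± 0.09, adjusted p 0.0085). Sqle was at 2801, 2639 and 2771 against 1665, 1977 and 2219 (0.50 ± 0.10, adjusted p 0.0224). Cyp51 was at 6565, 6316 and 5958 against 3793, 4767 and 4978 (0.49 ± 0.10, adjusted p 0.026). The samples of MC38-Tnhigh lay above all mock samples for each of these. Srebf2 (0.46) and Elovl6 (0.33) were also higher, and none of the 7 mevalonate genes was called. The median log2 fold change of the 31 genes was 0.09 and turned to -0.05 without sample 1 of MC38-MOCK#1, when 3 genes were higher and 1 lower. The count was 0 without sample 2 of MC38-MOCK#1 and 0 without any single sample of MC38-Tnhigh. With the replicate number, which in these lines goes with the passage, as a block, 0 of the 31 genes and 4 of all 22172 genes were called. Once chromosome medians were removed, Sqle and Srebf2, both on chromosome 15, and Lss, on chromosome 10, lost the call.

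In MC38-CMAS KO 5 of the 31 genes were higher and 0 lower (limma), against 3.02% of all genes higher, 5.76% called in all. Among genes with a mean of at least 400, 8.51% were called and 5.11% were higher. Of the 31 genes 12 did not overlap, against 24.3% of all genes. Scd2 was at 33475, 28813 and 28500 in MC38-CMAS KO against 12927, 17991 and 21325 in MC38-MOCK#1, with the lowest value of the former above the highest of the latter (log2 fold change 0.82 ± 0.18, adjusted p 0.0458). Sqle was at 2867, 2857 and 3049 (0.59 ± 0.11, adjusted p 0.0258), and Lss at 2859, 2828 and 2734 (0.55 ± 0.09, adjusted p 0.0233), above the mock values given before. Cyp51 (0.51) and Elovl6 (0.32) were also higher. The count was 3 without sample 3 of MC38-MOCK#1 and 0 without any other single sample. With the replicate number as a block 0 of the 31 genes and 1 of all 22024 were called.

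In MC38-WT 3 of the 31 genes were higher than in MC38-MOCK#1 and 0 lower (limma), against 2.70% of all genes higher, 5.51% called in all, and 8 of 31 genes without overlap against 23.4%. Of the genes with a mean of at least 400, 7.22% were called and 4.26% were higher. The share of called members (9.68%) was thus near the background. Sqle was at 3310, 2609 and 2955 in MC38-WT (log2 fold change 0.60 ± 0.13, adjusted p 0.0444). Cyp51 was at 7197, 6348 and 6823 (0.60 ± 0.12, adjusted p 0.033) and Lss at 2917, 2519 and 2698 (0.50 ± 0.11, adjusted p 0.0458). All of these samples lay above those of MC38-MOCK#1, but the count was 0 whichever single sample was left out. Sqle and Lss also lost the call once chromosome medians were removed. Between MC38-Tnhigh and MC38-WT limma called 0 of the 31 genes, against 0.581% of all genes and 0.668% of those with a mean of at least 400. At an unadjusted p below 0.05 there were 9, against 14.2% of all genes, and 7 did not overlap, against 17.3%. Fdft1 came nearest, at 1240, 1159 and 1117 in MC38-Tnhigh and 1807, 1548 and 1569 in MC38-WT (-0.48 ± 0.09, adjusted p 0.0642). In MC38-DKO limma called 0 of the 31 genes against MC38-MOCK#1, with 0.0920% of all genes and 0.180% of those with a mean of at least 400 called. At an unadjusted p below 0.05 there were 6, against 7.51% of all genes, and 7 did not overlap, against 11.2%.

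MC38-DKO was then compared with MC38-CMAS KO, in which Cmas was likewise targeted. C1galt1c1 overlapped between these lines, as given above, so its level does not separate them, and the comparison rests on the labels. It shares no sample with the comparison of MC38-Tnhigh and MC38-MOCK#1. Here 3 of the 31 genes were lower and 0 higher (limma), against 3.78% of all genes lower, 6.93% called in all, and 12 of 31 without overlap against 24.5%. Among genes with a mean of at least 400, 10.9% were called and 6.05% were lower. The share of called members (9.68%) was thus near the background. Scd2 was at 20978, 15896 and 15927 in MC38-DKO against 33475, 28813 and 28500 (log2 fold change -0.79 ± 0.12, adjusted p 0.0102). Sqle was at 2265, 2248 and 2290 against 2867, 2857 and 3049 (-0.37 ± 0.06, adjusted p 0.0126). Srebf2 was at 4827, 4538 and 4607 against 6060, 5456 and 5911 (-0.32 ± 0.07, adjusted p 0.0306). All 3 genes were lower in every sample of MC38-DKO. Sqle and Srebf2, both on chromosome 15, lost the call once chromosome medians were removed. The count was 1 without sample 3 and 0 without sample 1 or 2 of MC38-CMAS KO, and 0 without sample 2 or 3 of MC38-DKO.

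Whether the lines in which C1galt1c1 was targeted differed alike from their references, with and without Cmas targeted, was tested as an interaction, the log2 fold change of MC38-Tnhigh against MC38-MOCK#1 minus that of MC38-DKO against MC38-CMAS KO. It was above 0 for 8 of the 31 genes and below 0 for 0 (limma), against 11% of all genes above 0 and 22.1% called in all. Of the genes with a mean of at least 400, 37.1% were called and 19.8% were above 0, so the share of called members (25.8%) was near the background. Scd2, at 30176, 27828 and 24173 in MC38-Tnhigh beside the values given for the other lines, showed the largest difference, 1.47 ± 0.22 (SE, adjusted p 0.000323), with means of 17414 in MC38-MOCK#1, 27392 in MC38-Tnhigh, 30263 in MC38-CMAS KO and 17600 in MC38-DKO. Sqle followed with 0.86 ± 0.12 (adjusted p 0.000145) and means of 1954, 2737, 2924 and 2268 in the same order. Lss differed by 0.81 ± 0.11 (adjusted p 0.000119), with means of 1924, 2870, 2807 and 2395. In these genes both single knockouts stood above MC38-MOCK#1, and MC38-DKO stood below MC38-CMAS KO. The untransfected MC38-WT also stood above MC38-MOCK#1, with means of 26510 for Scd2, 2958 for Sqle and 2711 for Lss. A higher level than in MC38-MOCK#1 was thus not particular to the single knockouts. Srebf2 (0.77), Cyp51 (0.49), Msmo1 (0.48), Elovl6 (0.47) and Fasn (0.41) were called as well. Without sample 3 of MC38-MOCK#1 the count was 13, and without sample 1 it was 11, of which 4 were below 0. Sqle, Srebf2, Elovl6 and Scd2 were called under every alternative and in every fit without 1 sample, and Lss was not called once chromosome medians were removed. Over these fits the difference ranged from 0.50 to 0.96 for Sqle and from 0.41 to 0.87 for Srebf2.

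**Figure D5:**
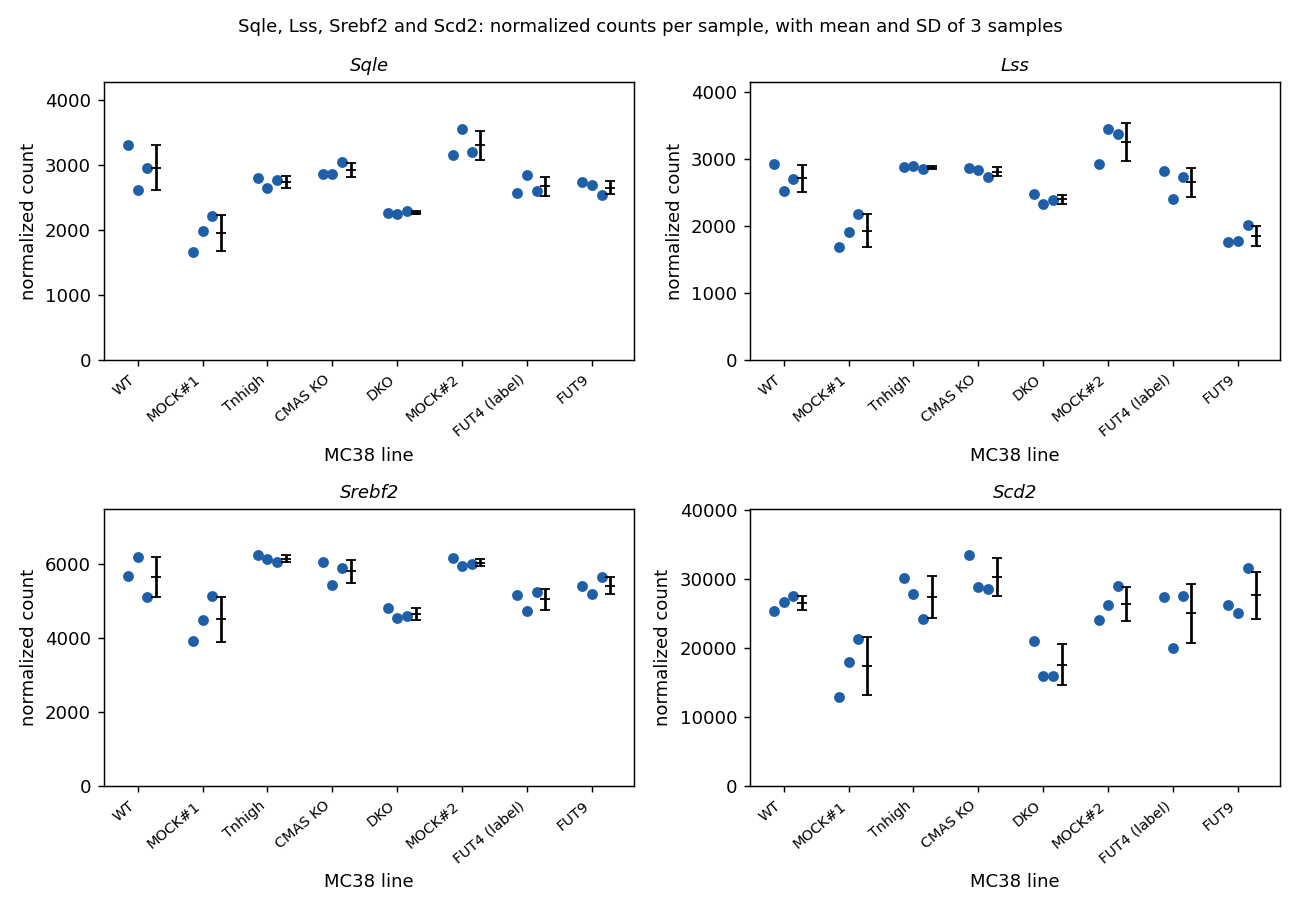
Normalized counts of Sqle, Lss, Srebf2 and Scd2 in each sample of the 8 lines, with bars for mean and SD of 3 samples. Scd2 lies between 12927 and 21325 in MC38-MOCK#1 and MC38-DKO and from 24173 upwards in MC38-Tnhigh and MC38-CMAS KO. In the other lines Scd2 lies at 25384 to 27535 (MC38-WT), 23990 to 28931 (MC38-MOCK#2), 20026 to 27602 (line labelled FUT4) and 25116 to 31525 (MC38-FUT9). Sqle is tightest in MC38-DKO (2248 to 2290).

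A further 40 genes of lipid metabolism were counted beside these, of which 37 or 38 passed the filter in each comparison. They were tested with the main settings only. Of 37 tested, limma called 22 in MC38-FUT9 against MC38-MOCK#2, 15 of them lower. The share was 24.1% of all genes and 38.8% of those with a mean of at least 400. Mylip, which encodes a ubiquitin ligase that degrades lipoprotein receptors and is a target of the liver X receptors, was at 37, 45 and 48 against 319, 419 and 631 (log2 fold change -3.32). Acss2, the cytosolic acetyl-CoA synthetase, was at 236, 193 and 305 against 1152, 1391 and 1880 (-2.58). Abca1, the exporter of cholesterol and likewise a target of those receptors, went the other way at 157, 134 and 397 against 34, 30 and 88 (2.15), and Cyp27a1, a sterol hydroxylase, fell by 1.07. These 4 genes did not overlap between the lines, and the receptor targets Mylip and Abca1 moved in opposite directions.

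In the line labelled FUT4 10 of 38 tested genes were called, 7 lower, against 16.1% of all genes and 25.2% of the more abundant ones. Mylip (-1.13), the carnitine palmitoyltransferase Cpt1a (-1.09) and the protease Mbtps2 (0.75) were among them. Between MC38-FUT9 and the line labelled FUT4 19 of 38 were called, 14 lower in MC38-FUT9. The share was 31.5% of all genes and 51.7% of the more abundant ones, so the count was near the background. The largest differences were those of Mylip (-2.19), Acss2 (-1.94), the diacylglycerol acyltransferase Dgat2 (-1.01) and the malic enzyme Me1 (-0.73). Between MC38-MOCK#2 and MC38-MOCK#1 11 of 38 were called, against 11.3% of all genes and 16.9% of the more abundant ones. Dgat2 (-1.13), Mylip (1.07) and Pcyt2 (0.60) were among them.

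In MC38-Tnhigh against MC38-MOCK#1 8 of 38 tested genes were called, 7 of them lower, while the called members of the synthesis list were higher. The share was 11.6% of all genes and 21.5% of the more abundant ones, so the count was near the background. With the replicate number as a block only 4 of all 22172 genes were called. Acss2 was at 784, 546 and 476 against 940, 1209 and 2021 (-1.16), Mylip at 124, 109 and 94 against 172, 235 and 224 (-0.94) and Dgat2 at 191, 180 and 179 against 328, 381 and 336 (-0.92). Npc1, which exports cholesterol from lysosomes, fell by 0.47. The values of these genes in MC38-Tnhigh lay below all mock values. MC38-CMAS KO had 2 calls among 37, Dgat2 (-0.81) and Dolk (0.65), against 5.76% of all genes. MC38-WT had 2 among 37, Dgat2 (-0.95) and Fads3 (-0.55), against 5.51%. In MC38-DKO 0 of 37 were called against MC38-MOCK#1, and 0.0920% of all genes. Against MC38-CMAS KO 2 of 37 were called in MC38-DKO, and 6.93% of all genes. These were Npc1 (0.38) and Abca1, which was at 29, 11 and 11 against 243, 154 and 103 (-3.28). The interaction was called for 17 of 37, against 22.1% of all genes and 37.1% of the more abundant ones. Abca1 (3.06), Acss2 (-1.86), the liver X receptor gene Nr1h3 (1.51) and Dgat2 (-1.46) had the largest differences.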

How the data were processed

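RNA of 24 samples, 3 of each of 8 MC38 lines, had been sequenced as stranded mRNA libraries. The authors aligned the reads to GRCm38 and counted them per gene; the submitters' processing notes name HISAT2 2.0.4, SAMtools 0.1.19, Subread 1.5.0-p3 with featureCounts, and edgeR 3.18.1. As deposited, the values are a score, namely counts that the authors scaled by library size and TMM with edgeR and rounded to whole numbers. Because they are no longer raw counts, count models were not used. Each library carries one factor, so a single read amounts to between 0.755 and 1.672 normalized counts; the estimate of these factors was off by at most 0.093% in 7 simulated scalings.

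Values were tested as log2(value + 1), with a pseudocount of 1, with limma 3.58.1 in R 4.3.3 (lmFit, eBayes with a mean-variance trend), per pair of lines, on all genes with at most 4 zeros among 6 samples (8 among 12 for the interaction, 16 among 24 for all lines). p-values were adjusted over all tested genes (Benjamini-Hochberg) and called below 0.05. Fold changes are on the log2(value + 1) scale, which understates changes of low genes. Tested on simulated data for MC38-Tnhigh against MC38-MOCK#1, limma called 173 of 200 genes changed 2-fold among 21509, and no unchanged gene. The simulated noise was independent between genes, with a spread smoothed over genes of like level, and held no shift shared within a sample. The members called in that comparison changed by less than 2-fold, so the simulation does not give the power or the false calls for them. Every called member is named, with the value in every sample for at least the 3 with the largest change, and at most 4 called genes per comparison from the further 40. The members and lists were chosen with earlier results of these data known. Other genes of these pathways are not reported here. Exon lengths are those in the deposited table, symbols were matched by gene identifier for 52403 of 52636 genes, and promoters come from RefSeq (GRCm38.p6). The other steps ran in Python 3.11.15 (pandas 2.3.3, numpy 2.4.6, and for figures matplotlib 3.10.9).

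The alternatives were a pseudocount of 5, a mean of at least 10 as the filter, no filter, scaling to the same total or by median of ratios, all 8 lines in one fit, a block for the replicate number, eBayes with no trend, removal of the median deviation of each chromosome, and leaving out each sample in turn.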

Additional observations from a re-analysis of the deposited data

Results flagged for a closer look

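The difference between the lines in which C1galt1c1 was targeted and their references was not the same with and without Cmas targeted for 8 of the 31 genes, by the interaction test of limma. The difference, as the log2 fold change of MC38-Tnhigh against MC38-MOCK#1 minus that of MC38-DKO against MC38-CMAS KO, was 1.47 for Scd2, 0.86 for Sqle, 0.81 for Lss, 0.77 for Srebf2, 0.49 for Cyp51, 0.48 for Msmo1, 0.47 for Elovl6 and 0.41 for Fasn. All 8 were above 0, but Lss was not called once chromosome medians were removed. Cyp51 and Msmo1 were not called without the mean-variance trend. Fasn was not called without that trend or with all 8 lines in one fit. It also lost the call without sample 1 of MC38-MOCK#1 and without sample 2 or 3 of MC38-Tnhigh. Of all genes tested 22.1% were called for this interaction, and of those with a mean of at least 400, 37.1%, so the share of 25.8% among the members is near the background. C1galt1c1 itself overlapped between MC38-DKO (166 to 206) and MC38-CMAS KO (152 to 215). No line was tested for a single outlying sample, since each has 3.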

How the results depend on the processing

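Of 2089 comparisons of a single gene or median with its value under an alternative, 1771 kept their direction and side of the threshold or stayed within the spread, 316 lost the call and 2 medians moved. No called gene turned direction, but 3 medians over the members changed sign: that of MC38-Tnhigh (0.09) was -0.05 and that of MC38-DKO (0.03) was -0.11 without sample 1 of MC38-MOCK#1, and the latter was -0.02 without sample 1 of MC38-DKO. The count of genes called over all lines (23) stayed within 1.5 times under every alternative, as did that of MC38-FUT9 against MC38-MOCK#2 (21), except without a sample. With all 8 lines in one fit the counts were 8 in MC38-Tnhigh, 9 in MC38-CMAS KO, 1 in MC38-DKO and 9 in MC38-WT against MC38-MOCK#1, 1 in MC38-Tnhigh against MC38-WT, and 16 in MC38-MOCK#2 against MC38-MOCK#1. Without the mean-variance trend they were 0 in MC38-Tnhigh, 0 in MC38-CMAS KO and 0 in MC38-WT against MC38-MOCK#1, 0 in MC38-DKO against MC38-CMAS KO, 5 in the line labelled FUT4, 8 between the activation lines, 3 between the mock lines and 5 for the interaction. A mean of at least 10 gave 5 in MC38-WT against MC38-MOCK#1 and 1 in MC38-Tnhigh against MC38-WT, where the same total gave 1 too. With chromosome medians removed they were 8 in MC38-CMAS KO and 1 in MC38-DKO against MC38-CMAS KO. Sqle and Srebf2 lost the call in the latter. Against MC38-MOCK#1, so did Sqle, Lss and Srebf2 in MC38-Tnhigh, Sqle and Lss in MC38-WT and Srebf2 in MC38-MOCK#2. The cause of these shifts was not tested.

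The replicate number as a block gave 0 calls in MC38-Tnhigh, 0 in MC38-CMAS KO and 0 in MC38-WT against MC38-MOCK#1, and 5 in the line labelled FUT4. The correlation of same-numbered samples after line means were removed ranged from -0.21 to 0.25 over the comparisons, and in no comparison was it above 0.1 for every pair, so the numbers were not taken to pair samples, although in MC38-MOCK#1 and the knockout lines, and in MC38-MOCK#2 and MC38-FUT9, same-numbered samples were at the same passage. Without 1 sample at a time the counts ranged from 0 to 4 in MC38-Tnhigh, 0 to 3 in MC38-CMAS KO, 0 to 0 in MC38-DKO and 0 to 0 in MC38-WT against MC38-MOCK#1, 0 to 0 in MC38-Tnhigh against MC38-WT, 0 to 2 in MC38-DKO against MC38-CMAS KO, 4 to 9 in the line labelled FUT4, 13 to 20 in MC38-FUT9, 7 to 14 between them, 0 to 9 between the mock lines, 7 to 13 for the interaction and 20 to 27 over all lines. These fits hold 2 samples in 1 line. The call of Tm7sf2, at 10 to 29 normalized counts, in the line labelled FUT4 was lost without any single sample but sample 2 of MC38-MOCK#2.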
